A study of Homo sapiens with 5 samples.

Results

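The genes described here are 10 markers and regulators of blood stem and progenitor cells: CD34, CD38, PROM1, MEIS1, HOXA9, HOXA10, IGLL1, MSI2, ERG and HLF. They were found by symbol in a count table of 51055 Ensembl gene IDs, where each symbol matched 1 ID, and 9 of the 10 had a count in at least 1 library. A total of 9 were chosen as known markers and regulators, with earlier results of these data already known. IGLL1 was chosen from the data, because its count was lower in the transduced libraries, so its values against untransduced cells are given without a test. The libraries came from HL60, an established human promyelocytic leukaemia line that grows in suspension as immature granulocyte precursors. Of the 5 libraries, 2 were of cells carrying ZIP, a lentivector (pGreenPur, with GFP and puromycin resistance) whose hairpin makes a full-length antisense to miR-378a-3p. Another 2 were of cells carrying SCR, the control form of that vector, which the labels call both scramble and empty, and 1 was of untransduced HL60 cells, which got neither vector. Cells of both vector groups were spun with 8 µg/mL polybrene and virus (multiplicity of infection 20) and then selected with puromycin at 2 µg/mL between day 3 and day 8, steps that the labels do not state for the untransduced cells. The series title presents the knockdown as a mimic of myelodysplastic syndrome, a disorder of blood stem cells. No library stands for a sorted stem cell population, and the sources used here do not say whether a vector line was 1 clone or a pool of cells.

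Blood stem cells and early progenitors are recognised by the surface sialomucin CD34, while the ectoenzyme CD38 appears as human progenitors commit to a lineage. HOXA9 and HOXA10 are homeobox transcription factors that bind DNA with cofactors of the MEIS and PBX families. They keep progenitors immature, decline as granulocytes and monocytes mature, and are often high in acute myeloid leukaemia. ERG, an ETS factor, and HLF, a PAR bZIP factor, maintain stem cells, and MSI2 is an RNA-binding protein that regulates translation in them. IGLL1 encodes the lambda5 chain of the surrogate light chain, which pairs with VPREB1 in the receptor of early B cells, and its transcript is also present in early myeloid progenitors.

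The sequence at the centre of the design is the microRNA that the ZIP hairpin opposes. It is shown because its seed, bases 2 to 8 in capitals, is what pairs with target mRNAs. The mature form lies on the plus strand at chr5:149732867-149732888 (RefSeq, GRCh38.p14).
hsa-miR-378a-3p: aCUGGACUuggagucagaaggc

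The reverse complement of this seed (AGTCCAG, sense strand only) was searched in 1 GENCODE transcript with the longest 3′ UTR per gene. It occurred in the 3′ UTRs of CD38 (2 matches), MSI2 (1), ERG (1) and CD34 (2), and in none of those of HOXA9, HOXA10, MEIS1, HLF, PROM1 and IGLL1. The matches of the 3 members that passed the expression filter are shown, with 10 bases on either side and the match in capitals, because they are the letters with which the seed can pair. In GRCh38 they lie at chr4:15850552-15850578 and chr4:15850670-15850696 (CD38, plus strand), chr17:57679856-57679882 (MSI2, plus strand) and chr21:38380736-38380762 (ERG, minus strand).
CD38 first match: gcaaaaattgAGTCCAGcacagagctt
CD38 second match: caccatggtcAGTCCAGggattcttca
MSI2 match: attttgacttAGTCCAGtagtcacata
ERG match: ctccacccccAGTCCAGgttattagca
Such a match is common. Among 12115 tested genes with a 3′ UTR model, 1573 (12.98%) held one. Of these, 35.1% were higher and 37.6% lower in ZIP than in SCR, against 34.5% and 36.6% of the genes without a match.

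The libraries held 30925067 and 24406580 counts (ZIP), 24539092 and 24978022 (SCR) and 25064771 (untransduced). Levels are in CPM (counts per 1000000 counts), with the library size scaled by the trimmed mean of M values (TMM). Genes were called at an adjusted p under 0.05 by edgeR's quasi-likelihood test with Benjamini-Hochberg adjustment over all genes tested, and the fold changes of that test are log2, ± SE. Nothing says that replicates were separate cultures, so the p-values rest on a spread between libraries that may be technical. All 11 promyelocyte markers of the labelled cell type were counted in every library, with MPO, the granule peroxidase, at 17049 and 16583 CPM in ZIP, 9967 and 9992 CPM in SCR and 19020 CPM in untransduced cells. MIR378A itself had 0 and 2 counts in ZIP and 0 in the other 3 libraries, so the knockdown could not be checked from this table.

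In ZIP against SCR, 7 of the 10 members passed the expression filter, 3 were higher (CD38, MSI2 and IGLL1), 2 were lower (HOXA9 and HOXA10), and ERG and HLF did not pass the test. Over all 14643 genes tested 32.2% were higher and 33.2% lower (65.4% either way), so the share of members called is near that of genes at large. The members' median log2 fold change was 0.23, against 0.00 for all genes tested. That median is the value of IGLL1, and the 7 values ran from -2.64 (HOXA9) to 1.65 (CD38), so it describes no common shift. In SCR against untransduced cells, leaving out IGLL1, 6 of 9 members could be tested. Of these 6, 3 were higher (CD38, HOXA9 and HOXA10) and 1 lower (MSI2), where 32.7% of 15832 genes tested were higher and 32.2% lower (64.9% either way). In ZIP against untransduced cells, 6 of 9 could again be tested, and 4 of the 6 were higher (CD38, HOXA10, MSI2 and HLF) and 1 lower (ERG), where 28.5% of genes were higher and 29.7% lower (58.2% either way). The last 2 comparisons share the single untransduced library, which was assumed to vary like the vector libraries. In bulk RNA, fewer cells of a type and less RNA per cell cannot be told apart.

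**Figure D1:**
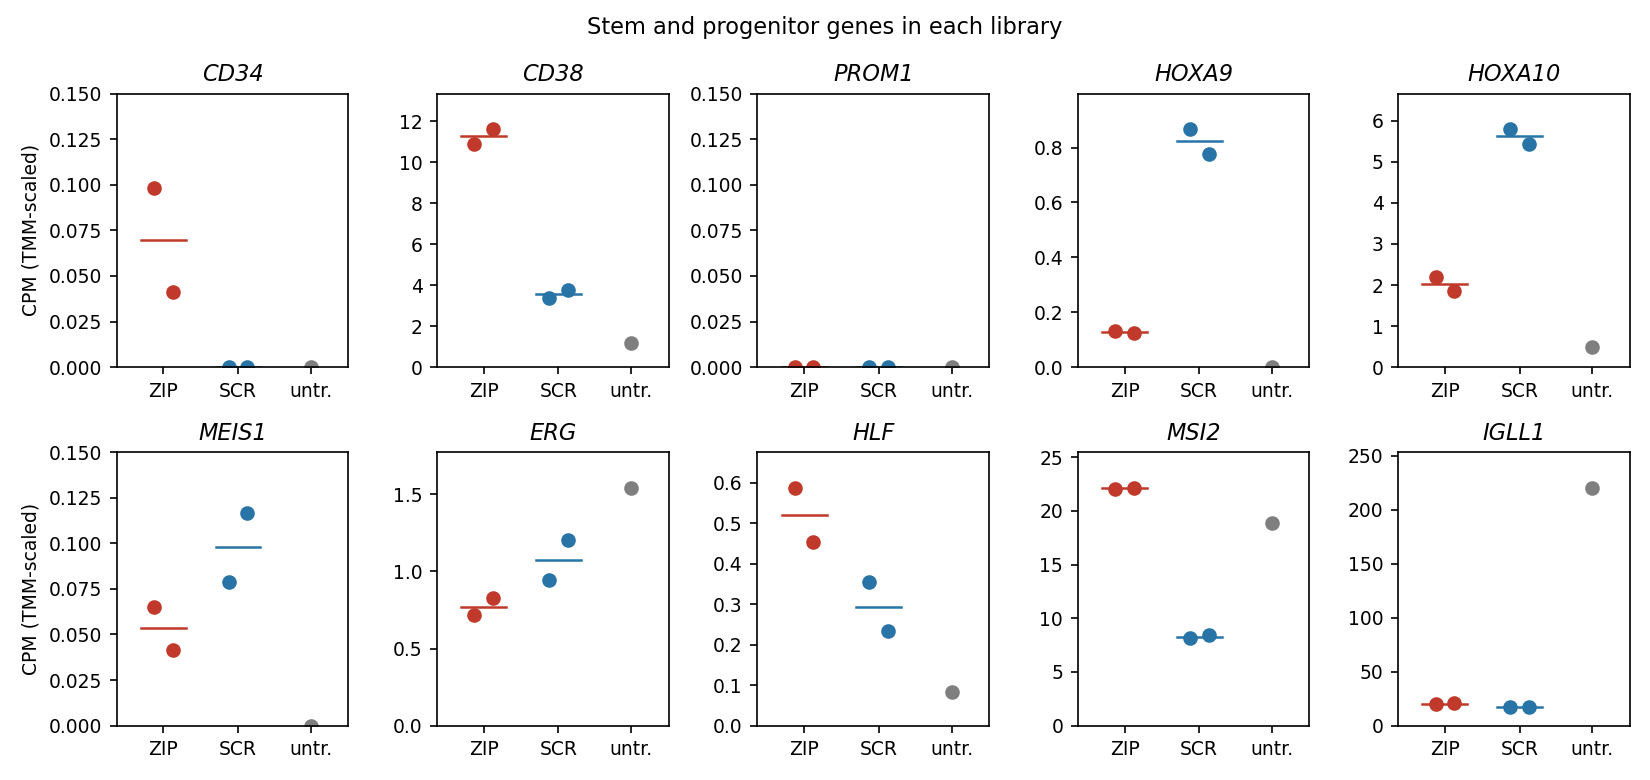
Level of each of the 10 genes in TMM-scaled CPM on linear axes starting at 0, with 1 point per library (ZIP red, SCR blue, untransduced grey, shortened to untr.) and a line at the mean of the 2 ZIP or SCR libraries. CD38 is highest in ZIP, HOXA9 and HOXA10 in SCR, and IGLL1 in untransduced cells, and PROM1 is at 0 in all 5 libraries.

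The surface markers were led by CD38. CD38 (ENSG00000004468, chromosome 4, 15778275 to 15853230 in GRCh38, plus strand) makes an enzyme that consumes NAD, and it is a known retinoid-responsive antigen of HL60. It had 10.9 and 11.6 CPM in ZIP, 3.39 and 3.77 CPM in SCR, and 1.17 CPM in untransduced cells. The groups did not overlap, as was so for 81.0% of all genes tested in ZIP against SCR, and both vectors stood above untransduced cells. Its log2 fold change was 1.65 ± 0.12 in ZIP against SCR (adjusted p = 1.16e-10), 1.61 ± 0.25 in SCR against untransduced cells (adjusted p = 5.24e-06) and 3.26 ± 0.20 in ZIP against untransduced cells (adjusted p = 2.33e-12).

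CD34 (ENSG00000174059, chromosome 1, 207880972 to 207911402, minus strand) had 3 and 1 counts in ZIP and 0 counts in SCR and in untransduced cells. PROM1 (ENSG00000007062, chromosome 4, 15963076 to 16084378, minus strand), which encodes the stem cell antigen CD133, had 0 counts in all 5 libraries. A count of 0 allows up to 3 counts, which is 0.0970 to 0.123 CPM of the unscaled total in these libraries. Both defining surface antigens of stem cells were therefore at or near the limit of detection in every group, and differences in them were not detectable at this depth. Such limits and the ratio intervals below cover counting error only.

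HOXA9 and HOXA10 moved in the opposite direction to CD38 between the vectors. HOXA10 (ENSG00000253293, chromosome 7, 27170591 to 27180261, minus strand) had 2.19 and 1.86 CPM in ZIP, 5.79 and 5.44 CPM in SCR, and 0.501 CPM in untransduced cells. HOXA9 (ENSG00000078399, chromosome 7, 27162435 to 27175180, minus strand) had 4 and 3 counts in ZIP, 22 and 20 counts in SCR, and none in untransduced cells. For both genes every SCR library was above every ZIP library, and the untransduced library was lowest. The log2 fold change in ZIP against SCR was -1.46 ± 0.16 for HOXA10 (adjusted p = 6.96e-08) and -2.64 ± 0.48 for HOXA9 (adjusted p = 6.02e-05).

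Against untransduced cells, HOXA10 rose in both vectors, by 2.02 ± 0.35 in ZIP (adjusted p = 3.21e-05) and by 3.48 ± 0.29 in SCR (adjusted p = 2.79e-10). HOXA9 was higher in SCR than in untransduced cells (adjusted p = 7.59e-05). With 3 counts taken as the floor of the untransduced library, its ratio of SCR to untransduced was 6.57. That ratio leaves out the counting error of the SCR libraries, and the exact interval of the counts started at 5.11. In ZIP the ratio to that floor was 1.02 and the exact interval of the counts started at 0.630. HOXA9 did not pass the test there (adjusted p = 0.069), so a rise in ZIP was not established. The gene models of HOXA9 and HOXA10 overlap in GENCODE 29, and the sources used here do not say whether counting used strand or dropped reads shared by genes, so the split of reads between them is uncertain.

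**Figure D2:**
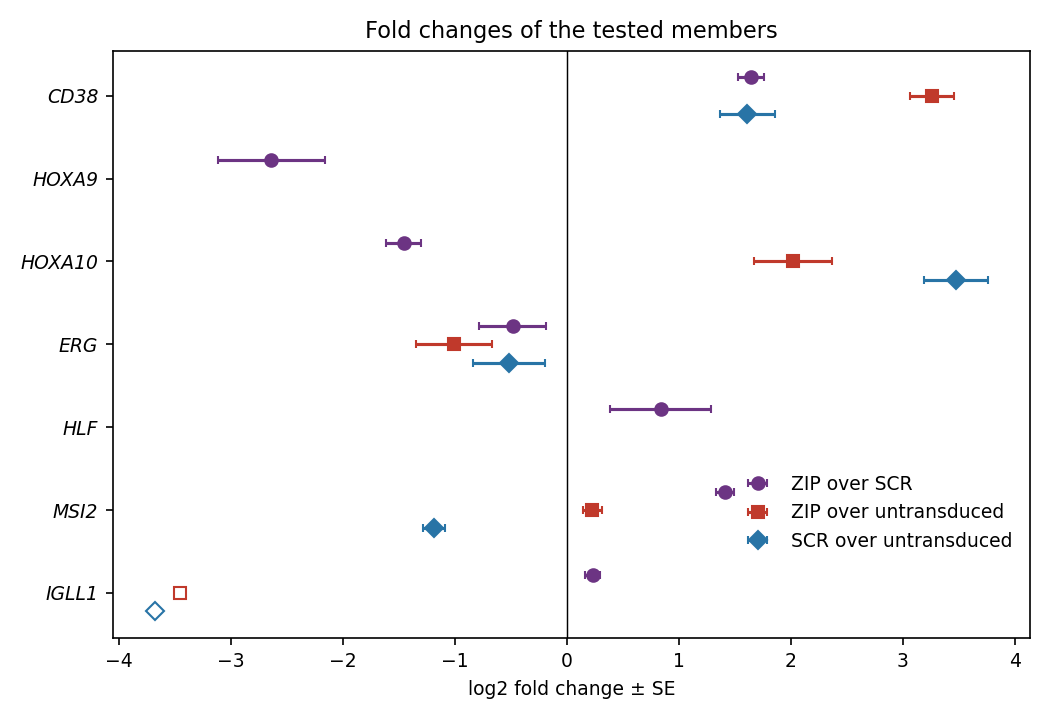
Log2 fold change on the x axis for the members tested in at least 1 comparison, as ZIP over SCR (purple circles), ZIP over untransduced (red squares) and SCR over untransduced (blue diamonds), with bars of ± 1 SE. Open symbols without bars mark IGLL1 against untransduced cells, which has no test, and HOXA9 and HLF have no points against untransduced cells because they had 0 and 2 counts there. CD38 and MSI2 lie right of 0 and HOXA9 and HOXA10 left of 0 in ZIP over SCR.

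The promoter windows of both genes are shown because the genes moved together and their windows are rich in CpG, marked in capitals. Each window runs from 250 bases before to 50 after a RefSeq start (GRCh38.p14, minus strand, chr7:27165488-27165787 for HOXA9 and chr7:27179812-27180111 for the upstream start of HOXA10).
HOXA9: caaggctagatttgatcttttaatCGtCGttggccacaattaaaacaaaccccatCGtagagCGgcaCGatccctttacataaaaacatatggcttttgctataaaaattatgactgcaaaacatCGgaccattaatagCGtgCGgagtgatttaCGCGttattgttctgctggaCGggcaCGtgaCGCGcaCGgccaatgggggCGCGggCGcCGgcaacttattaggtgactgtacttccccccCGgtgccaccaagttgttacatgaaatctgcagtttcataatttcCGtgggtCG
HOXA10: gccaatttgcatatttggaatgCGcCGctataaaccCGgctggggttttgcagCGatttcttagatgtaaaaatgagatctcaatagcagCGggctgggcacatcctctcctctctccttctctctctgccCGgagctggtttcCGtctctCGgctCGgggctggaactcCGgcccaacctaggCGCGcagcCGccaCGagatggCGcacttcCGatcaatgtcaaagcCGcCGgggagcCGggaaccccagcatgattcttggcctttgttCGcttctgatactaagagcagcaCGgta
They held 22 and 21 CpG, against a median of 14 over all 35116 windows. Both also held the letters TATAAA on either strand, as did 11.5% of all windows. The PBX and HOX motif TGATTNAT was in neither, on either strand, and in 2.82% of all windows.

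The neighbouring genes at the 5′ end of the HOXA cluster had the same order of groups. HOXA11 had 1.18 and 0.909 CPM in ZIP, 2.72 and 2.68 CPM in SCR, and 1 count in untransduced cells. Its log2 fold change was -1.35 ± 0.22 in ZIP against SCR (adjusted p = 1.66e-05), and its ratio of SCR to untransduced was 64.7 (exact 95% interval of the counts 11.4 to 2576). HOXA13 had 4 and 6 counts in ZIP, 23 and 28 in SCR and none in untransduced cells, with a log2 fold change of -2.42 ± 0.43 in ZIP against SCR (adjusted p = 5.43e-05). HOXA11-AS, which lies antisense to HOXA11, had 11 and 5 counts in ZIP, 25 and 32 in SCR and 3 in untransduced cells, and its reads cannot be told apart from those of HOXA11 without strand. All 3 fell in ZIP against SCR. The other antisense and neighbouring transcripts with a count, HOXA-AS2, HOXA10-AS and HOTTIP, had at most 2 counts in any library.

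HOXA5, in the middle of the cluster, did not pass the test in ZIP against SCR, with a log2 fold change of -0.65 ± 0.31 (adjusted p = 0.0683). In SCR against untransduced cells it rose by 0.98 ± 0.43 (adjusted p = 0.0496). HOXA2, HOXA3, HOXA6 and HOXA7 had too few counts to be tested in ZIP against SCR. Whether the 5′ genes differ from the other genes of the cluster in fold change was not tested.

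**Figure D3:**
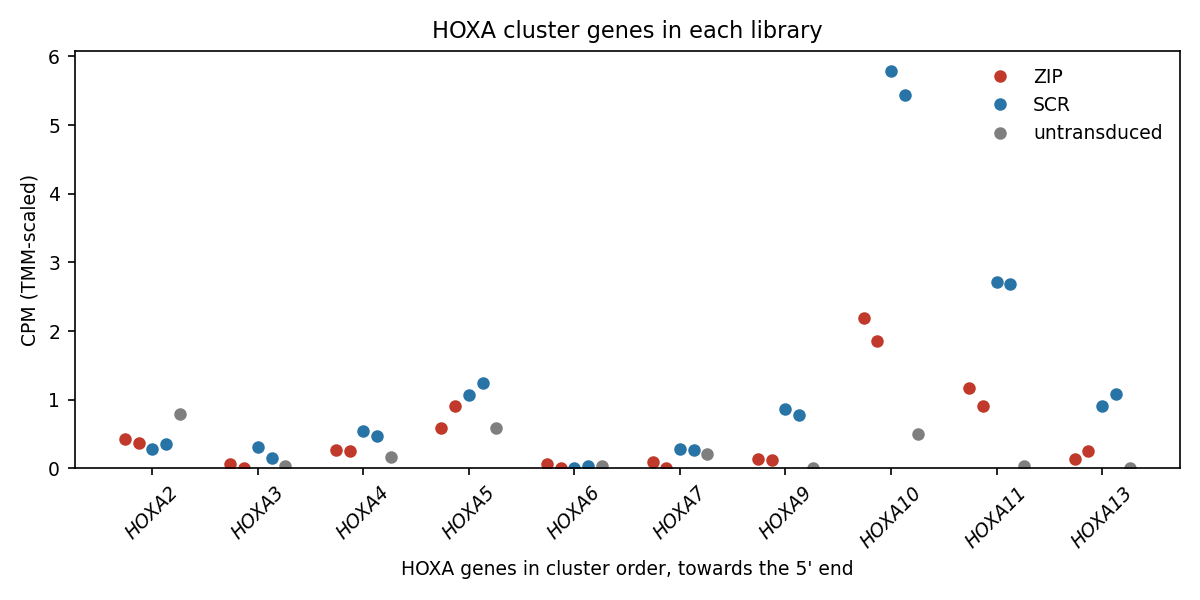
TMM-scaled CPM of 10 HOXA genes in their order along the cluster, with 1 point per library (ZIP red, SCR blue, untransduced grey). From HOXA9 to HOXA13 the SCR points are above the ZIP points and the untransduced point is lowest.

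The MEIS and PBX cofactors differed in level, with MEIS1 at few counts and MEIS2, PBX2 and PBX3 above HOXA10 in every library. MEIS1 (ENSG00000143995, chromosome 2, 66433452 to 66573869, plus strand), the usual partner of HOXA9 in leukaemia, had 2 and 1 counts in ZIP, 2 and 3 counts in SCR and 0 in untransduced cells, and it did not pass the filter. Its relative MEIS2 had 19.3 and 16.7 CPM in ZIP, 20.9 and 20.7 CPM in SCR, and 19.7 CPM in untransduced cells. PBX3 had 7.64 and 8.27 CPM in ZIP, 13.7 and 13.4 CPM in SCR, and 9.26 CPM in untransduced cells, a log2 fold change of -0.77 ± 0.09 in ZIP against SCR (adjusted p = 2.24e-07). PBX2 was lower as well, at -0.51 ± 0.04 (adjusted p = 3.97e-10). Of the 30 HOX and TALE homeobox genes listed beside the members, 29 were found and 11 could be tested in ZIP against SCR. Of these, 1 was higher (TGIF1) and 5 lower, with a median log2 fold change of -0.51. Over all genes tested, 32.2% were higher and 33.2% lower.

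ERG and HLF, the other stem cell factors, were low. ERG (ENSG00000157554, chromosome 21, 38380027 to 38661780, minus strand) had 0.718 and 0.827 CPM in ZIP, 0.946 and 1.21 CPM in SCR, and 1.54 CPM in untransduced cells. The ZIP libraries were the lowest and the untransduced library the highest. Its log2 fold change was -0.49 ± 0.30 in ZIP against SCR (adjusted p = 0.163), -0.52 ± 0.32 in SCR against untransduced cells (adjusted p = 0.164) and -1.005 ± 0.34 in ZIP against untransduced cells (adjusted p = 0.0145). The last call was lost without ZIP 1 (adjusted p = 0.0717) and with DESeq2 (adjusted p = 0.218), in a range of 0.00953 to 0.218 over 9 alternatives.

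HLF (ENSG00000108924, chromosome 17, 55265012 to 55325065, plus strand) had 18 and 11 counts in ZIP, 9 and 6 counts in SCR, and 2 counts in untransduced cells. The order was the reverse of that of ERG. Its log2 fold change in ZIP against SCR was 0.84 ± 0.45 (adjusted p = 0.11). The ratio of ZIP to untransduced was 6.34 (exact 95% interval of the counts 1.60 to 54.8, adjusted p = 0.0137), a call that was lost without ZIP 1 (adjusted p = 0.0541) and with DESeq2 (adjusted p = 0.127), in a range of 0.00564 to 0.127 over 9 alternatives. The ratio of SCR to untransduced was 3.52 (interval 0.818 to 31.7, adjusted p = 0.122).

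MSI2 (ENSG00000153944, chromosome 17, 57255851 to 57684685, plus strand) had the most counts of any member in the ZIP libraries. It had 22.005 and 22.2 CPM in ZIP, 8.16 and 8.44 CPM in SCR, and 18.9 CPM in untransduced cells. The SCR libraries were low, and the ZIP libraries were close to the untransduced library. The log2 fold change was 1.41 ± 0.08 in ZIP against SCR (adjusted p = 2.35e-12) and -1.18 ± 0.10 in SCR against untransduced cells (adjusted p = 2.96e-10). In ZIP against untransduced cells it was 0.23 ± 0.08 (adjusted p = 0.0214), a call that was lost without ZIP 1 (adjusted p = 0.0521) and with DESeq2 (adjusted p = 0.259), in a range of 0.00574 to 0.259 over 9 alternatives. Its relative MSI1 had 1 count in ZIP 1 and 0 counts in the other 4 libraries. NUMB, whose mRNA Musashi proteins repress in mouse, had 32.6 and 33.2 CPM in ZIP, 46.9 and 46.8 CPM in SCR, and 33.1 CPM in untransduced cells, a log2 fold change of -0.51 ± 0.05 in ZIP against SCR (adjusted p = 8.45e-09).

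IGLL1 (ENSG00000128322, chromosome 22, 23573125 to 23580308, minus strand) had 19.8 and 20.5 CPM in ZIP, 17.2 and 17.1 CPM in SCR, and 220.5 CPM in untransduced cells. This is the fall for which it was chosen: the ratio to untransduced was 0.0912 in ZIP and 0.0778 in SCR, given without a test. Between the vectors its log2 fold change was 0.23 ± 0.07 (adjusted p = 0.005), and this call was lost with DESeq2 (adjusted p = 0.0706), in a range of 0.00234 to 0.0706 over 10 alternatives. Its related pseudogene IGLL3P had 23 and 19 counts in ZIP, 7 and 7 in SCR, and 14 in untransduced cells, and IGLL5 had none, so few reads were assigned to related copies. How reads that fit several copies were counted is unknown.

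Genes that act with IGLL1 in early B cells ranged from no counts to over 100 CPM. VPREB1, EBF1 and IGHM had 0 counts in all 5 libraries, and VPREB3 and CD79B had at most 2 in any. CD79A, a signalling chain of the B cell receptor, had 1.34 and 1.45 CPM in ZIP, 2.29 and 2.37 CPM in SCR, and 4.25 CPM in untransduced cells. TCF3, the E protein of early B cells, had 178 and 179 CPM in ZIP, 134 and 134 CPM in SCR, and 194 CPM in untransduced cells, with a log2 fold change of 0.42 ± 0.03 in ZIP against SCR (adjusted p = 4.79e-11). BTK, a kinase of B cell receptor signalling that myeloid cells also express, had 161 and 167 CPM in ZIP, 148 and 146 CPM in SCR, and 153 CPM in untransduced cells, with a log2 fold change of 0.16 ± 0.03 in ZIP against SCR (adjusted p = 5.35e-05). Of 20 genes in this list 7 could be tested, with 2 higher (TCF3 and BTK) and 1 lower (CD79A) in ZIP against SCR. Over all genes tested, 32.2% were higher and 33.2% lower.

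The promoter window of IGLL1 is shown because E proteins bind E-boxes (CANNTG on either strand), which are in capitals. It lies on the minus strand at chr22:23580241-23580540 (RefSeq, GRCh38.p14).
IGLL1: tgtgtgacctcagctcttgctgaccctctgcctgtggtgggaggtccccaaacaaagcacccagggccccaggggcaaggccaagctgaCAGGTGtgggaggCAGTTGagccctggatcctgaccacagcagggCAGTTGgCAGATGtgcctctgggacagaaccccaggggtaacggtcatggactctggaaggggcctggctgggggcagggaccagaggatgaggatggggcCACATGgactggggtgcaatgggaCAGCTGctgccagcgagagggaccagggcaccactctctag
It held 6 E-boxes, and 0.615% of all windows held at least as many, against a median of 1. It held 2 CpG, where the HOXA9 and HOXA10 windows above held 22 and 21.

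Levels between genes were compared per length, as CPM per kilobase of exon in GENCODE 29. IGLL1 was the highest member in each group, at 21.9 and 22.7 CPM per kilobase in ZIP, 19.01 and 18.92 in SCR, and 243.9 in untransduced cells. In ZIP the next were CD38 (1.59 and 1.69), MSI2 (1.02 and 1.03) and HOXA10 (0.590 and 0.502), then ERG (0.0947 and 0.109), HLF (0.0890 and 0.0689) and HOXA9 (0.0431 and 0.0409), all in CPM per kilobase. In SCR HOXA10 was second (1.56 and 1.47), ahead of CD38 (0.494 and 0.550), MSI2 (0.380 and 0.393), HOXA9 (0.286 and 0.257) and ERG (0.125 and 0.159). The ranges of neighbours in these orders did not overlap, but each group had only 2 libraries. In the untransduced library, which has no replicate, MSI2 was second (0.878), followed by ERG (0.203), CD38 (0.170) and HOXA10 (0.135).

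For each member with at least 1 CPM in a group, the 3 genes of most similar pattern were taken, as a description. The measure was the root mean square difference of centred log2 CPM over the 5 libraries, with 0.1 added to each CPM. That offset shrinks the differences of genes with few counts. HOXA10 was closest to SERPINH1 (0.06), MCUB (0.07) and TFEB (0.08), with SERPINH1 at only 0.125 CPM in untransduced cells. MSI2 was closest to CMBL (0.04), FABP5 (0.07) and PPM1H (0.07), and CD38 to CYR61 (0.08), PIR (0.23) and ADAMTS1 (0.24). IGLL1 was closest to LTF (0.24), MMP8 (0.33) and PPP1R1B (0.35). In the ZIP and SCR libraries MMP8 had at most 0.197 CPM and PPP1R1B at most 0.117 CPM, near the limit of detection. LTF and MMP8 encode proteins of secondary granules, and LTF had 0.490 and 0.413 CPM in ZIP, 0.552 and 0.583 CPM in SCR, and 7.34 CPM in untransduced cells. ERG was closest to the pseudogene WASH3P (0.06) and to AC004453.1 (0.06) and AC007969.1 (0.07), which carry clone-based names.

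Markers of other cell types differed between the same libraries. Over all genes tested, 32.2% were higher and 33.2% lower in ZIP against SCR. In SCR against untransduced cells 32.7% were higher and 32.2% lower. Of 15 monocyte and macrophage markers tested, 12 were lower and 1 higher in ZIP against SCR, and 12 were higher and 2 lower in SCR against untransduced cells. Their summed level was 1599 and 1597 CPM in ZIP, 1573 and 1587 in SCR, and 597 in untransduced cells. Lysozyme (LYZ) made most of this, with 1392 and 1394 CPM in ZIP, 1115 and 1121 CPM in SCR, and 323 CPM in untransduced cells. The monocyte co-receptor CD14, which had the order of groups of HOXA10, had 3.49 and 4.17 CPM in ZIP, 54.6 and 53.5 CPM in SCR, and 2.09 CPM in untransduced cells. The 15 eosinophil, basophil and mast cell markers summed to 113 and 108 CPM in ZIP, 195 and 197 CPM in SCR, and 714 CPM in untransduced cells, with the tryptase gene TPSAB1 at 0 throughout. Of this list 1 was higher and 5 lower of 8 tested in ZIP against SCR, and 9 were lower of 12 in SCR against untransduced cells. The 15 neutrophil maturation markers summed to 188 and 187 CPM in ZIP, 344 and 340 CPM in SCR, and 237 CPM in untransduced cells, with ALPL at 0 throughout. CSF3R, the G-CSF receptor, made most of the neutrophil sum, with 142 and 140 CPM in ZIP, 231 and 228 CPM in SCR, and 163 CPM in untransduced cells. Of this list 2 were higher and 6 lower of 9 tested in ZIP against SCR, and 5 higher and 4 lower of 11 in SCR against untransduced cells.

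The summed level of the 11 promyelocyte markers, like MSI2, was lowest in SCR. It was 27460 and 26810 CPM in ZIP, 14920 and 14880 CPM in SCR, and 28470 CPM in untransduced cells. MPO, with levels given above, made most of each sum. In ZIP against SCR 7 of the 11 were higher and 1 lower, where 32.2% of all genes tested were higher and 33.2% lower. In SCR against untransduced cells 1 was higher and 10 lower, where 32.7% of all genes tested were higher and 32.2% lower. The part of any of these marker groups in the members' differences was not tested.

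The remaining lists hold genes of the members' pathways and families. Their counts stand beside 32.2% higher and 33.2% lower over all genes tested in ZIP against SCR. Of 30 other stem cell transcription factors 21 could be tested, and 10 were higher and 9 lower in ZIP against SCR (median 0.08). GATA2, which stem cells need, fell by 1.17 ± 0.04 (adjusted p = 1.5e-15) and the LIM protein LMO2 by 0.68 ± 0.03 (adjusted p = 5.13e-14). RUNX3 rose by 0.78 ± 0.03 (adjusted p = 2.95e-15) and SOX4 by 0.77 ± 0.05 (adjusted p = 6.42e-12). GATA2 had 44.9 and 43.3 CPM in ZIP, 95.8 and 102.6 CPM in SCR, and 84.3 CPM in untransduced cells.

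Surface genes of stem cells, progenitors and leukaemic blasts were more often lower than higher in ZIP against SCR. Of 26 tested, 14 were lower and 5 higher (median -0.31), where 33.2% of all genes were lower and 32.2% higher. In SCR against untransduced cells 16 of 27 were higher and 7 lower, where 32.7% of all genes were higher and 32.2% lower. CD109, a GPI-anchored protein, had 4.70 and 4.88 CPM in ZIP, 37.3 and 35.8 CPM in SCR, and 0.209 CPM in untransduced cells. The hyaluronan receptor CD44 had 127 and 133 CPM in ZIP, 255 and 263 CPM in SCR, and 74.7 CPM in untransduced cells. The integrin chain ITGA6 ran the other way, at 79.2 and 87.3 CPM in ZIP, 26.4 and 24.9 CPM in SCR, and 63.6 CPM in untransduced cells.

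A published list of 17 leukaemia stem cell genes, which includes CD34, had 9 testable genes in ZIP against SCR, 2 higher and 5 lower (median -0.58). EMP1, an epithelial membrane protein, had 1.18 and 1.03 CPM in ZIP, 39.8 and 43.7 CPM in SCR, and 0.542 CPM in untransduced cells, a log2 fold change of -5.22 ± 0.11 in ZIP against SCR (adjusted p = 6.17e-19). LAPTM4B rose by 0.30 ± 0.03 (adjusted p = 1.25e-08). Of the other progenitor-enriched genes 13 could be tested, with 4 higher and 4 lower. PRSS57, a granule serine protease, had 14.4 and 14.5 CPM in ZIP, 5.60 and 5.40 CPM in SCR, and 35.8 CPM in untransduced cells.

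Genes of NAD metabolism, the pathway in which CD38 acts, were higher in 10 and lower in 5 of 17 tested (median 0.20) in ZIP against SCR. BST1, the paralogue of CD38 beside it on chromosome 4, had 24.8 and 25.05 CPM in ZIP, 21.4 and 21.7 CPM in SCR, and 19.4 CPM in untransduced cells (log2 fold change 0.21 ± 0.06 in ZIP against SCR, adjusted p = 0.00449). NT5E, which encodes the ectoenzyme CD73, had 9 and 1 counts in ZIP, 224 and 225 in SCR, and 1 in untransduced cells. NAMPT, which makes NAD by salvage, fell by 0.53 ± 0.04 (adjusted p = 9.25e-10). Of the retinoic acid pathway genes 6 were higher and 4 lower of 12 tested (median 0.27). RXRA, the retinoid X receptor, rose by 0.45 ± 0.03 (adjusted p = 1.88e-11), and the retinol dehydrogenase DHRS9 fell by 4.07 ± 0.21 (adjusted p = 1.18e-12).

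The families of the other members held genes that moved in both directions. Of 15 ETS family genes tested, 3 were higher and 9 lower in ZIP against SCR (median -0.17), with ETS1 at 2.12 and 1.94 CPM in ZIP, 8.71 and 8.05 CPM in SCR, and 2.71 CPM in untransduced cells. Of 15 PAR bZIP and circadian genes, 8 were higher and 3 lower (median 0.17). DBP, a relative of HLF, had 29.2 and 30.0 CPM in ZIP, 19.8 and 20.5 CPM in SCR, and 49.8 CPM in untransduced cells. Of 19 Musashi, NUMB and NOTCH genes 8 were higher and 10 lower (median -0.28), with the NOTCH ligand JAG1 at 0.78 ± 0.05 (adjusted p = 1.27e-11). Of 5 prominin-related and membrane microdomain genes tested, 1 was higher and 2 lower, and the flotillin FLOT1 had 17.8 and 17.7 CPM in ZIP, 61.1 and 61.4 CPM in SCR, and 10.2 CPM in untransduced cells.

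**Figure D4:**
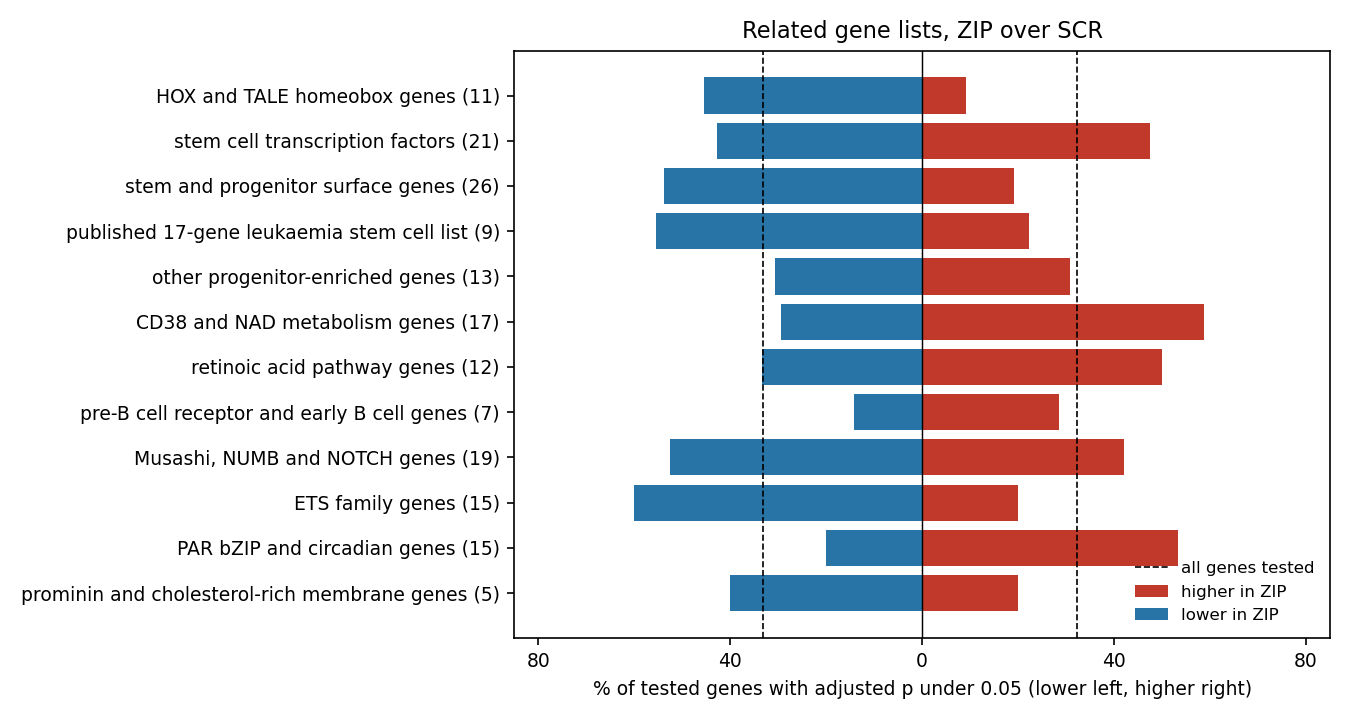
Share of tested genes of each of the 12 pathway and family lists, marker lists left out, with an adjusted p under 0.05 in ZIP against SCR, with higher genes to the right (red) and lower genes to the left (blue), and the number tested in brackets. Dashed lines mark the shares of all genes tested, 32.2% higher and 33.2% lower, and 9 of 15 tested ETS family genes lie to the left.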

How the data were processed

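Gene counts of 5 HL60 libraries (TruSeq Small RNA kit, per the labels) were used as deposited, as raw counts without normalization by the authors. Bowtie2 and featureCounts are named in the submitters' processing notes, and CASAVA 1.8.2, TopHat 2, Cufflinks and HTSeq in the design text; the sources used here do not give the build, annotation, strand setting or which tool made the counts. IDs were matched to GENCODE 29 (GRCh38): 44305 of 51055 had a symbol. Coordinates are from that annotation, and 0 rows named no gene.

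Low genes were removed by filterByExpr (at least 10 counts, 15 in total), libraries were scaled by TMM (factors 0.956 to 1.03), and genes were tested with edgeR 4.0.16 in R 4.3.3, quasi-likelihood test, Benjamini-Hochberg adjustment. SE is the fold change divided by the square root of F. ZIP against SCR used 4 libraries; the comparisons with untransduced cells used all 5. Both designs had 2 residual degrees of freedom. The script was tested on simulated data. DESeq2 1.42.0 was an alternative, with other scaling, no filter, other sets of libraries, the replicate number as a block and each ZIP or SCR library left out.

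Replicates differed by more than counting noise (mean chi-square per gene 2.65 for SCR and 1.88 for ZIP). Besides all members, up to 4 genes per related list were named by smallest p in ZIP against SCR (adjusted p under 0.05, at least 1 CPM in a group, no overlap); HOXA5, HOXA13, MEIS2, MSI1, BST1, VPREB1, VPREB3, EBF1, IGHM, CD79B and the marker genes were named outside that rule, after their values were seen. The members and lists were chosen with earlier results of these data known.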

Additional observations from a re-analysis of the deposited data

How the results depend on the processing

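In ZIP against SCR the members called stayed at 3 higher and 2 lower in every alternative but DESeq2, where IGLL1 was lost. Fits with the replicate number as a block also gave 3 higher and 2 lower, with 4790 genes higher and 4919 lower over all genes. The labels do not say whether same-numbered libraries shared a batch. Their deviations correlated at 0.04 over genes, which cannot settle it with a single pair of libraries per group. The values of 1.41 for MSI2 and 1.65 for CD38 stood as in the fit without the block. In ZIP against untransduced cells, DESeq2 called 2 members higher and 0 lower (2 and 0 at an unadjusted p under 0.05 too), where edgeR called 4 and 1, and 2985 genes lower over all genes, against 4704 with edgeR; the cause was not tested. With single libraries left out, the members called there ranged from 2 to 4 higher and from 0 to 1 lower, the lowest without ZIP 1, where 4 were higher and 1 lower at an unadjusted p under 0.05 (edgeR). CD38, HOXA10 and, in ZIP against SCR, HOXA9 and MSI2 kept direction and call in all alternatives run. With library totals in place of TMM the median of all genes in SCR against untransduced cells moved to 0.13, against 0.02; no member changed direction. PROM1 had no counts, and CD34, MEIS1, HLF and HOXA9 had few.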

Other observations

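The cytokine receptors of progenitors, chosen here after their values were seen, also differed in how they moved. KIT, the stem cell factor receptor, had 21.7 and 22.6 CPM in ZIP, 5.44 and 4.28 CPM in SCR, and 38.0 CPM in untransduced cells, a log2 fold change of 2.19 ± 0.10 in ZIP against SCR, -2.97 ± 0.10 in SCR against untransduced cells (adjusted p = 2.89e-17, edgeR quasi-likelihood test) and -0.78 ± 0.08 in ZIP against untransduced cells (adjusted p = 7.06e-09). FLT3 had 55.2 and 54.1 CPM in ZIP, 59.7 and 56.0 CPM in SCR, and 39.0 CPM in untransduced cells, and its difference between ZIP and SCR did not pass the test (-0.08 ± 0.04, adjusted p = 0.106, edgeR).

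A granule-stage antigen and a leukaemia stem cell list gene, also chosen after their values were seen, were low in both vectors. CEACAM8, a granulocyte surface antigen, had 1.796 and 1.82 CPM in ZIP, 0.552 and 0.428 CPM in SCR, and 23.7 CPM in untransduced cells. ARHGAP22, of the published leukaemia stem cell list, had 3.04 and 2.89 CPM in ZIP, 2.33 and 1.67 CPM in SCR, and 10.2 CPM in untransduced cells.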
